A study of Mus musculus with 18 samples.

Results

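The 45 genes described here encode nucleolar proteins that make ribosomes. They were listed by name, with no threshold on a measured value, but earlier results of these data were known when the list was made. All 45 were found among the 48440 genes of the count tables. The list held 5 genes of RNA polymerase I and its factors, 3 abundant nucleolar proteins, 4 proteins of the box C/D and U3 small nucleolar particles, 4 of the box H/ACA particles, 12 factors of the small ribosomal subunit, 16 of the large subunit, and the RNA helicase Ddx21.

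The study followed macroH2A2, a variant of histone H2A that carries an added macro domain, as it entered chromatin. The cells were one line of dermal fibroblasts from newborn male 129/S6 mice, immortalized with SV40, at passages 20-30. Every RNA and macroH2A2 library, the 0h libraries included, came from cells that lacked macroH2A1 and macroH2A2 and carried a macroH2A2-GFP transgene switched on by doxycycline. Poly(A) RNA was counted in 3 replicates without doxycycline (0h), after 6 hours (6h) and after 24 hours (24h) of 0.5 ug/ml doxycycline. Native chromatin was precipitated through GFP in 1 library each at 0h, 6h, 24h and 5 days (5d) of doxycycline. Further libraries, also 1 each, came from 24h with 0.5 uM flavopiridol, an inhibitor of CDK9 and so of transcription elongation, over the last 18 hours, and from cells kept for 10 days in 5 uM GSK126, an inhibitor of the methyltransferase Ezh2, before 6h or 24h of doxycycline. A library of the histone variant H2A.Z came from other cells, wild-type primary dermal fibroblasts of newborn females at passages 0-1. No cells without the transgene were given doxycycline, so the drug and macroH2A2 cannot be told apart.

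Ribosomes are built around ribosomal RNA, which RNA polymerase I transcribes in the nucleolus. Small nucleolar particles then guide its methylation (box C/D) and pseudouridylation (box H/ACA), and the precursor is folded, cut and bound to ribosomal proteins by assembly factors of the small and large subunits. Growing cells express these factors in concert, and the transcription factor MYC, which binds E-boxes, is a well-known activator of many of them. MacroH2A variants are best known from inactive chromatin and are mostly absent from transcribed genes.

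Counts assigned to genes ranged from 29338093 to 37793178 per RNA library. The share of reads not assigned to a single gene was 21.2 to 22.2% at 0h and 6h, and 22.8 to 23.1% at 24h. H2afy2, the gene of macroH2A2, was at 9.61 to 25.3 CPM (counts scaled to the size of the library) at 0h, 805 to 833 CPM at 6h and 1713 to 1741 CPM at 24h, in the order of the labels. Of 10 fibroblast markers 9 passed the filter on low counts, with Col1a1 at 3199 ± 74 CPM (SD, n = 3) at 0h. At 6h 6 of these 9 fell and Thy1 rose, while 18.2% of all genes tested fell and 20.8% rose. Of 26 markers of other cell types 9 passed, and their summed level was 171.5 to 182.6 CPM at 0h, 174.7 to 179.5 at 6h and 150.7 to 165.4 at 24h. Most of that sum was Cspg4, the proteoglycan NG2, and without it the sums were 16.6 to 17.6, 17.9 to 19.2 and 18.1 to 18.6 CPM. The epithelial markers Krt5 and Krt1, the macrophage marker Adgre1, the melanocyte and Schwann cell markers Dct and Sox10, and the muscle marker Myod1 had no count in any of the 9 libraries. Epcam, an epithelial adhesion protein, was low and was highest at 6h, with 1.46 ± 0.18, 2.57 ± 0.31 and 1.80 ± 0.30 CPM at the 3 times (SD, n = 3 each). It was 1 of 2 epithelial markers that passed the filter. The other had log2 changes of 0.090 at 6h against 0h and 0.10 from 6h to 24h, neither called. The part of Epcam in the results below was not tested.

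The members ranged in length from 973 bases (Nop10) to 149717 bases (Ddx10) from start to end. Their median length was 12962 bases, against 17330 for protein-coding genes, and Nop10 and Rrs1 were the 2 under 3 kb. Small nucleolar RNA genes lay inside 7 of the 45 members (15.6%), against 1.72% of all protein-coding genes: Ncl, Nop56, Nop58, Dkc1, Wdr43, Gnl3 and Ppan. Host genes of this kind carry the guide RNAs of the particles in their introns. Ebna1bp2 overlaps D4Ertd617e on the same strand, and Bop1 and Gnl2 overlap genes whose strand the gene table does not give, so their counts can include or lose reads of those neighbours. The table names 1 pseudogene of Fbl and 2 of Mrto4, and reads that map to more than 1 place are left out of the counts, so the levels of these genes are uncertain. Only pseudogenes named after a member were looked for, so copies under other names could affect the levels of further members.

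RefSeq promoters (GRCm38.p6, 250 bases before to 50 after the start) were at hand for 38 members and were searched on both strands for 4 motifs. The E-box CACGTG was in 6 of them (15.8%), against 7.90% of 17491 promoters of protein-coding genes and 11.2% of those of genes of 10 CPM or more at 0h. In 5 of the 6 it lay just after the start site. The stretches are shown because the E-box is the site read by MYC and its partners, with the motif in capitals, 5′ to 3′ on the strand of the gene.
Mybbp1a, chr11:72441347-72441376, plus strand: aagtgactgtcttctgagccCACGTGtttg
Utp4, chr8:106893643-106893672, plus strand: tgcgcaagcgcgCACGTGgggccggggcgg
Wdr43, chr17:71616220-71616249, plus strand: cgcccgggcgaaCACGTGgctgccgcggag
Utp20, chr10:88826765-88826794, minus strand: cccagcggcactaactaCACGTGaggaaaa
Pes1, chr11:3963965-3963994, plus strand: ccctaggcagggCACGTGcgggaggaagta
Nop2, chr6:125131811-125131840, plus strand: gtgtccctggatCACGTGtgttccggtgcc

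Mybbp1a binds Myb and sits with RNA polymerase I, Utp4, Wdr43 and Utp20 act in the small subunit processome, and Pes1 and Nop2 act on the large subunit. The motif was thus found in 3 of the roles. The 6 members with it had a median log2 change of 0.33 at 6h (0.20 to 0.37), and the 32 without it had 0.32 (0.10 to 0.47) with ranges that overlap.

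The ETS motif CCGGAAGT was more frequent. It was in 10 of the 38 promoters (26.3%), against 5.29% of all and 10.3% of those of genes of 10 CPM or more, and in 9 of the 10 it lay before the start, at most 120 bases away. The 4 of these members with the largest change at 6h and Polr1c, which was not called at 6h, are shown with the motif in capitals. In Gar1 the motif reads on the other strand.
Ebna1bp2, chr4:118620785-118620814, plus strand: caacgagaaaaCCGGAAGTgcggctatgaa
Gar1, chr3:129831422-129831451, minus strand: cgcgccgccacACTTCCGGaaacgtcgcgt
Nhp2, chr11:51619739-51619768, plus strand: cacttgaaaacCCGGAAGTgatgtcggagg
Heatr1, chr13:12395348-12395377, plus strand: gtagtgagaagCCGGAAGTtcctatgaggc
Polr1c, chr17:46248069-46248098, minus strand: ccacttgacgtCCGGAAGTgaaggacgtgg

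Members with and without the ETS motif had medians of 0.31 and 0.32 on the log2 scale at 6h. Among 102 promoters of a further list of ribosome biogenesis genes, the E-box was in 20.6% and the ETS motif in 30.4%. The NRF1 motif GCATGCGC and the YY1 motif AAGATGGC were each in 1 member promoter (2.63%), against 3.60% and 3.22% of all promoters and 6.57% and 5.74% of those of genes of 10 CPM or more. The median GC content was 59.5% in the member promoters, 56.3% in all and 62.0% in those of genes of 10 CPM or more. A match is a description of these letters, and no binding was measured.

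RNA of the members was higher at 6h of doxycycline than at 0h in nearly the whole list. Of the 45 members, 44 rose, none fell, and Polr1c was not called (edgeR quasi-likelihood test over 13785 genes, Benjamini-Hochberg adjusted p under 0.05). Of all genes tested 20.8% rose and 18.2% fell. Of the 8855 tested genes of 10 CPM or more at 0h, a class that holds all members, 2518 rose and 2085 fell. The median change was 0.32 on the log2 scale, or 25.0% more RNA, with a range of 0.092 to 0.49, against a median of 0.0067 for all genes. A rise of over 1.25-fold that was also called was seen in 23 members and in 603 of the 13785 genes (4.37%). This cut was not part of the call. It lies at the members' own median, so the count of 23 follows from its place. In 44 members every library at 6h lay above every library at 0h, which 25.3% of all genes did in that direction. Since RNA was compared as CPM, a change in the mix of cells and a change in these RNAs per cell cannot be told apart. A change in total RNA per cell would not be seen. The replicates of a time came from the same line, and the p-values measure the spread between these libraries.

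**Figure D1:**
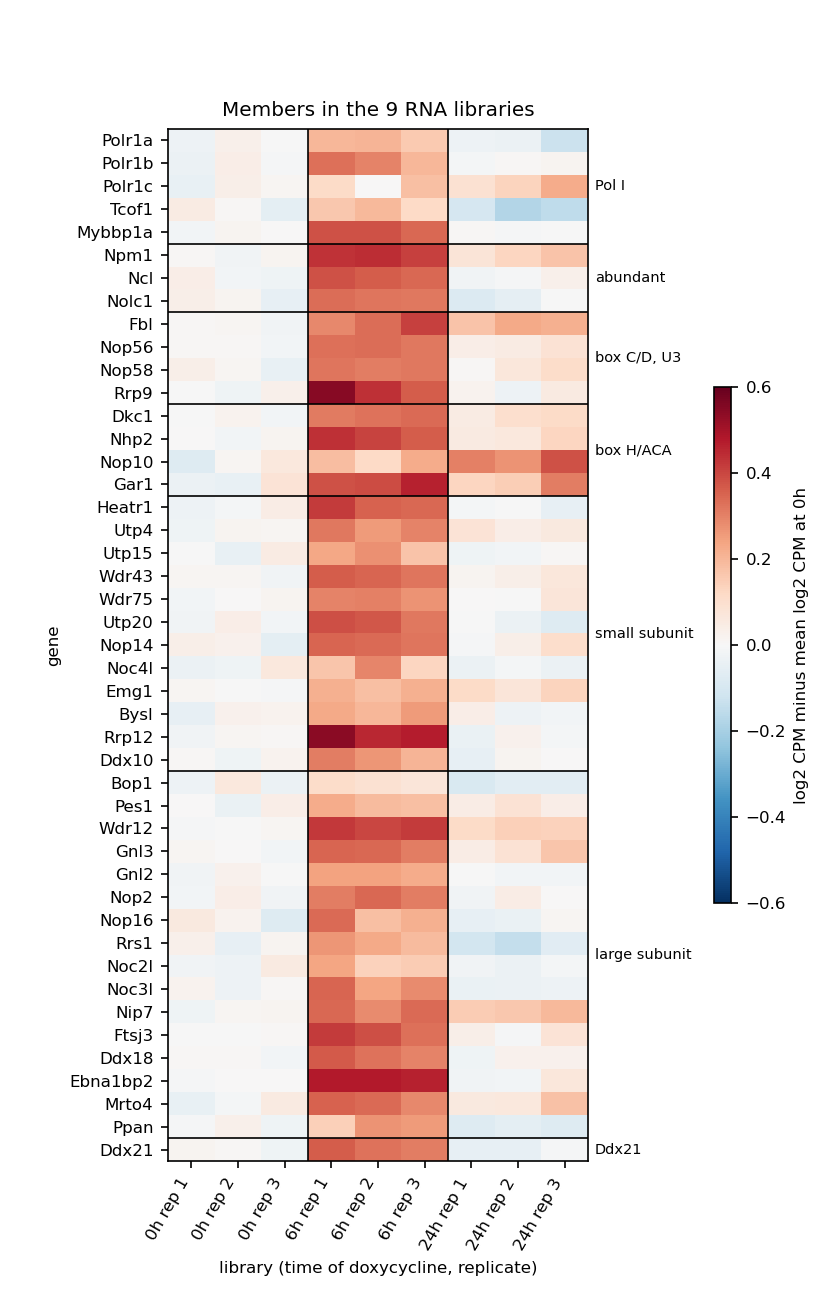
Log2 CPM of the 45 members in each of the 9 RNA libraries, as the difference from the gene's mean over the 3 libraries at 0h; rows are genes grouped by role and columns are libraries. The 3 libraries at 6h are higher than those at 0h in 44 of the 45 genes, and Nop10 is highest at 24h.

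The genes of RNA polymerase I and its factors had the lowest median of the groups with several members, 0.19 on the log2 scale at 6h, and 4 of 5 rose. Polr1a and Polr1b encode the 2 largest subunits, which form the active centre.

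Polr1a was at 136, 142 and 139 CPM at 0h, at 159.5, 159.8 and 155 CPM at 6h and at 136, 135 and 127 CPM at 24h. Polr1b was at 80.8, 85.2 and 82.5 CPM at 0h, at 104, 102 and 95.2 CPM at 6h and at 82.1, 83.3 and 83.6 CPM at 24h. Neither gene's libraries at 6h overlapped those at 0h, and the log2 changes were 0.19 ± 0.03 (adjusted p = 9.64e-06) and 0.28 ± 0.033 (adjusted p = 8.88e-08), each given with its standard error. Mybbp1a was at 570.4, 584 and 577 CPM at 0h, at 752, 751 and 732 CPM at 6h and at 581, 574 and 577 CPM at 24h, a change at 6h of 0.37 ± 0.023 (adjusted p = 2.75e-13). Its 0h and 24h libraries lay among each other. Tcof1 (treacle, which brings RNA polymerase I factors to the ribosomal DNA) was at 194, 189 and 180.4 CPM at 0h, at 209.8, 215 and 204 CPM at 6h and at 175, 166 and 169 CPM at 24h. It rose at 6h by 0.16 ± 0.03 (adjusted p = 9.77e-05) and was the only member called lower at 24h than at 0h, with -0.14 ± 0.03 (adjusted p = 0.00213). Polr1c, a subunit shared with RNA polymerase III, was at 63.6, 67.2 and 66.1 CPM at 0h, at 70.9, 65.7 and 74.4 CPM at 6h and at 69.9, 72.0 and 76.7 CPM at 24h. Its 6h replicate 2 lay inside the 0h range, and the change was 0.10 ± 0.04 (adjusted p = 0.0511) at 6h but 0.15 ± 0.04 (adjusted p = 0.0179) at 24h. Without that replicate the change at 6h was called (0.15, adjusted p = 0.00619), and it was also called without 24h replicate 1 (0.0388) or 3 (0.031).

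The abundant nucleolar proteins rose in 3 of 3. Npm1 (nucleophosmin, a chaperone of the outer nucleolus) was at 1606, 1579 and 1617 CPM at 0h, at 2159, 2177 and 2125 CPM at 6h and at 1688, 1753 and 1805 CPM at 24h. Ncl (nucleolin, which binds nascent ribosomal RNA) was at 1738, 1668 and 1661 CPM at 0h, at 2199, 2175 and 2143 CPM at 6h and at 1663, 1678 and 1727 CPM at 24h. At 6h both were clear of their 0h libraries, by 0.43 ± 0.025 (adjusted p = 6.20e-14) and 0.36 ± 0.024 (adjusted p = 1.19e-12). At 24h they parted: Npm1 was still higher than at 0h, by 0.13 ± 0.025 (adjusted p = 0.00101), while the 24h libraries of Ncl lay within the range at 0h. Nolc1, a chaperone of small nucleolar particles, was at 236, 233 and 223 CPM at 0h, at 290.2, 288 and 287 CPM at 6h and at 217, 222 and 229.8 CPM at 24h. Its change at 6h was 0.32 ± 0.027 (adjusted p = 1.43e-10).

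All 8 proteins of the small nucleolar particles rose at 6h. Fbl (fibrillarin, the methyltransferase of the box C/D particle) was at 35.2, 35.3 and 34.6 CPM at 0h, at 42.8, 44.2 and 46.5 CPM at 6h and at 39.4, 40.9 and 40.6 CPM at 24h. Rrp9, which belongs to the U3 particle, was at 45.2, 44.4 and 46.2 CPM at 0h, at 66.1, 61.2 and 58.3 CPM at 6h and at 45.9, 44.4 and 47.0 CPM at 24h. The log2 changes at 6h were 0.34 ± 0.041 (adjusted p = 9.11e-08) for Fbl and 0.45 ± 0.041 (adjusted p = 5.91e-10) for Rrp9, and Fbl also stayed above its 0h libraries at 24h. The scaffold proteins Nop56 and Nop58 changed by 0.33 and 0.31.

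In the box H/ACA particle, Dkc1 (dyskerin, the pseudouridine synthase) was at 199.7, 203 and 198 CPM at 0h, at 248, 250.4 and 253 CPM at 6h and at 207, 215 and 216 CPM at 24h. Its partner Gar1 was at 42.1, 41.9 and 45.7 CPM at 0h, at 56.3, 56.6 and 59.5 CPM at 6h and at 47.2, 47.8 and 53.4 CPM at 24h. Nhp2 was at 128, 127 and 129.5 CPM at 0h, at 174, 169.7 and 165 CPM at 6h and at 133, 134 and 140.4 CPM at 24h. These 3 were highest at 6h, with changes of 0.32 ± 0.026 (adjusted p = 4.94e-11), 0.41 ± 0.044 (adjusted p = 1.82e-08) and 0.40 ± 0.029 (adjusted p = 5.35e-12). Nop10, the smallest protein of the same particle, was at 64.9, 68.9 and 71.5 CPM at 0h, at 77.7, 74.2 and 79.8 CPM at 6h and at 84.2, 82.3 and 89.2 CPM at 24h. It was the only member that was higher at 24h than at 6h, with no overlap: its changes were 0.18 ± 0.038 (adjusted p = 0.000469) at 6h and 0.32 ± 0.038 (adjusted p = 1.12e-06) at 24h against 0h, and 0.14 ± 0.037 (adjusted p = 0.00313) from 6h to 24h.

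All 12 small subunit factors rose at 6h, with a median of 0.29. Rrp12, which acts in the export of subunits, had the largest change of the whole list. It was at 55.1, 56.3 and 56.2 CPM at 0h, at 81.4, 76.5 and 77.5 CPM at 6h and at 54.5, 56.9 and 55.5 CPM at 24h, so it rose by 0.49 ± 0.034 (adjusted p = 2.39e-12). Heatr1, a large scaffold of the small subunit processome that is also needed for RNA polymerase I transcription, was at 143, 145 and 150.3 CPM at 0h, at 195, 186 and 186 CPM at 6h and at 144, 146 and 141 CPM at 24h. Its change at 6h was 0.37 ± 0.028 (adjusted p = 2.02e-11), and its 24h libraries overlapped those at 0h. Utp20, another large scaffold protein, was at 265, 276 and 266 CPM at 0h, at 352, 349 and 335 CPM at 6h and at 268, 262 and 255 CPM at 24h. The other 9 changed by 0.20 (Noc4l and Emg1) to 0.34 (Wdr43 and Nop14) at 6h, with Utp4, Utp15, Wdr75, Bysl and Ddx10 between them.

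All 16 large subunit factors rose at 6h, with a median of 0.30. Ebna1bp2 was at 131, 132 and 132 CPM at 0h, at 182, 182 and 181 CPM at 6h and at 129.6, 130.0 and 138 CPM at 24h. Its 6h libraries lay far from the others, and the change at 6h was 0.47 ± 0.028 (adjusted p = 9.98e-14). Ftsj3, a methyltransferase of the large subunit precursor, was at 169, 169.5 and 171 CPM at 0h, at 227, 222 and 213 CPM at 6h and at 174, 169 and 179.8 CPM at 24h, with a change of 0.38 ± 0.028 (adjusted p = 1.35e-11).

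Pes1, Bop1 and Wdr12 form 1 complex of the large subunit, and all 3 rose at 6h. Wdr12 was at 58.0, 58.3 and 58.8 CPM at 0h, at 78.3, 77.0 and 78.1 CPM at 6h and at 63.3, 64.6 and 64.2 CPM at 24h. Pes1 was at 148, 144 and 152 CPM at 0h, at 172, 168 and 167 CPM at 6h and at 152, 157 and 152 CPM at 24h. Bop1 was at 124, 133 and 124 CPM at 0h, at 137, 136 and 134 CPM at 6h and at 119.5, 122 and 122 CPM at 24h. The changes at 6h were 0.41 ± 0.031 (adjusted p = 1.27e-11) for Wdr12, 0.20 ± 0.028 (adjusted p = 1.66e-06) for Pes1 and 0.092 ± 0.029 (adjusted p = 0.013) for Bop1, the smallest rise that was called. The difference between these changes was not tested. Bop1 was not called without 0h replicate 1 or 3 (adjusted p = 0.0677 and 0.0703) or without 6h replicate 1 (0.0597).

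Nip7, a factor of late large subunit steps, was at 83.8, 86.0 and 86.3 CPM at 0h, at 108, 104 and 108 CPM at 6h and at 95.0, 95.4 and 97.6 CPM at 24h. Gnl3 (nucleostemin, a GTPase) was at 125, 124 and 122 CPM at 0h, at 157, 157 and 153 CPM at 6h and at 128, 131 and 139 CPM at 24h. Both rose at 6h, by 0.32 ± 0.029 (adjusted p = 7.40e-10) and 0.33 ± 0.03 (adjusted p = 4.72e-10), and their 24h libraries lay between the other times. The remaining 9 large subunit factors (Gnl2, Nop2, Nop16, Rrs1, Noc2l, Noc3l, Ddx18, Mrto4 and Ppan) changed by 0.18 (Noc2l) to 0.33 (Ddx18) at 6h. The helicase Ddx21, which links RNA polymerase I and RNA polymerase II transcription, was at 457, 453 and 444 CPM at 0h, at 580.5, 566 and 559 CPM at 6h and at 436, 437 and 448 CPM at 24h. It rose by 0.33 ± 0.024 (adjusted p = 6.40e-12).

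From 6h to 24h the list came down again. Of the 45 members 43 fell, against 18.8% of all genes, Nop10 rose (all genes 17.4%, or 22.1% without overlap), and Polr1c was not called. Of the 8855 tested genes of 10 CPM or more at 0h, 2249 fell and 1968 rose. The median was -0.27 on the log2 scale, or -17.3%, and in 43 members every library at 24h lay below every library at 6h, which 23.2% of all genes did. This comparison shares the 6h libraries with the one before, so a high value in them enters both. The largest falls were those of Rrp12 at -0.50 ± 0.034 (adjusted p = 1.86e-12), Ebna1bp2 at -0.46 ± 0.028 (adjusted p = 1.69e-13) and Rrp9 at -0.44 ± 0.041 (adjusted p = 1.49e-09). Utp20, Heatr1, Nolc1, Ddx21, Mybbp1a, Ncl and Ftsj3 followed, from -0.40 to -0.34. Npm1 fell by 0.30, Polr1b by 0.27, Polr1a by 0.25, Dkc1 by 0.24, Bop1 by 0.16 and Pes1 and Fbl by 0.14 each. The falls of 2 members rested on single libraries: without 6h replicate 3 Fbl had an adjusted p of 0.0748 and Emg1 of 0.0662, and without 24h replicate 2 Emg1 had 0.11.

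Against 0h, 10 members were higher at 24h (4.17% of all genes were) and Tcof1 was lower (2.87% of all genes were), with a median of 0.0077 over the 45. Of the 8855 tested genes of 10 CPM or more at 0h, 529 were higher and 381 lower. The 10 were Nop10, Fbl, Gar1, Nip7, Polr1c, Wdr12, Npm1, Emg1, Gnl3 and Dkc1, and 3 of them belong to the 4 of the box H/ACA particle. After Nop10 the changes were 0.20 ± 0.041 (adjusted p = 0.00182) for Fbl, 0.19 ± 0.045 (adjusted p = 0.00623) for Gar1 and 0.17 ± 0.03 (adjusted p = 0.000325) for Nip7. Wdr12 followed at 0.13 ± 0.031 (adjusted p = 0.0078). Emg1, a methyltransferase of the small subunit, was at 79.3, 78.7 and 78.4 CPM at 0h, at 91.3, 89.4 and 91.3 CPM at 6h and at 85.3, 83.0 and 86.5 CPM at 24h, and changed by 0.11 ± 0.03 (adjusted p = 0.022). Gnl3 and Dkc1 were at 0.10 ± 0.03 (adjusted p = 0.0382) and 0.089 ± 0.026 (adjusted p = 0.0342).

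These calls at 24h depended on single libraries. Without 0h replicate 2 only 6 members were called higher, and without 24h replicate 3 only 5. Gnl3, Dkc1, Emg1, Gar1 and Polr1c each lost the call when 1 library was left out. Without 24h replicate 3 the adjusted p was 0.24 for Gnl3, 0.113 for Dkc1, 0.0859 for Emg1, 0.0757 for Gar1 and 0.126 for Polr1c. Without 0h replicate 2 it was 0.0726 for Dkc1, 0.0866 for Emg1, 0.124 for Gnl3 and 0.0588 for Gar1. Without 0h replicate 1 it was 0.0665 for Gnl3, 0.0869 for Dkc1 and 0.104 for Polr1c, and without 0h replicate 3 it was 0.105 for Gnl3, 0.105 for Dkc1 and 0.0586 for Emg1. Gnl3 and Dkc1 also lost the call without 24h replicate 2 (0.0676 and 0.119), and Gnl3 without 6h replicate 1 (0.0504). Nop10, Fbl, Nip7, Wdr12, Npm1 and Tcof1 were called under all 15 alternatives.

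The other 34 members were not called at 24h against 0h. Their log2 changes ran from -0.11 for Rrs1 to 0.099 for Mrto4, and a miss of the threshold does not show that a gene was at its 0h level. Without overlap of the libraries, 16 members were higher and 5 were lower than at 0h (all genes 12.0% and 11.5%). The 5 were Polr1a, Tcof1, Bop1, Rrs1 and Ppan. Of the best known members, Polr1b changed by 0.0033, Ncl by 0.00020, Heatr1 by -0.021, Ddx21 by -0.036 and Pes1 by 0.056 with adjusted p from 0.272 to 0.998. Polr1a and Bop1 had larger changes, of -0.066 (adjusted p = 0.212) and -0.072 (adjusted p = 0.153).

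**Figure D2:**
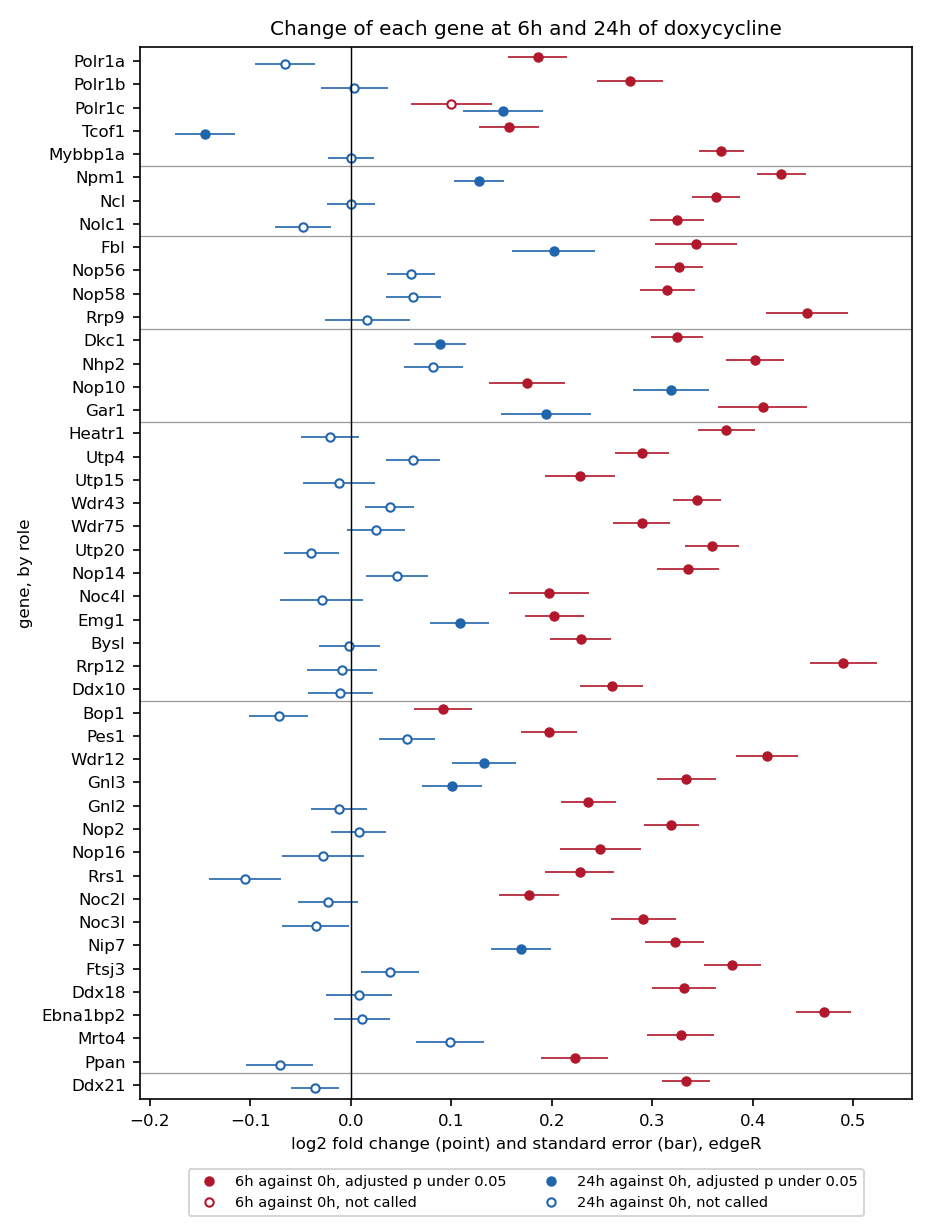
Log2 fold change of each member at 6h (red) and 24h (blue) of doxycycline against 0h, with its standard error from edgeR; filled points have an adjusted p under 0.05. All points at 6h but that of Polr1c are filled, and at 24h 11 are, of which Tcof1 lies below 0.

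**Figure D3:**
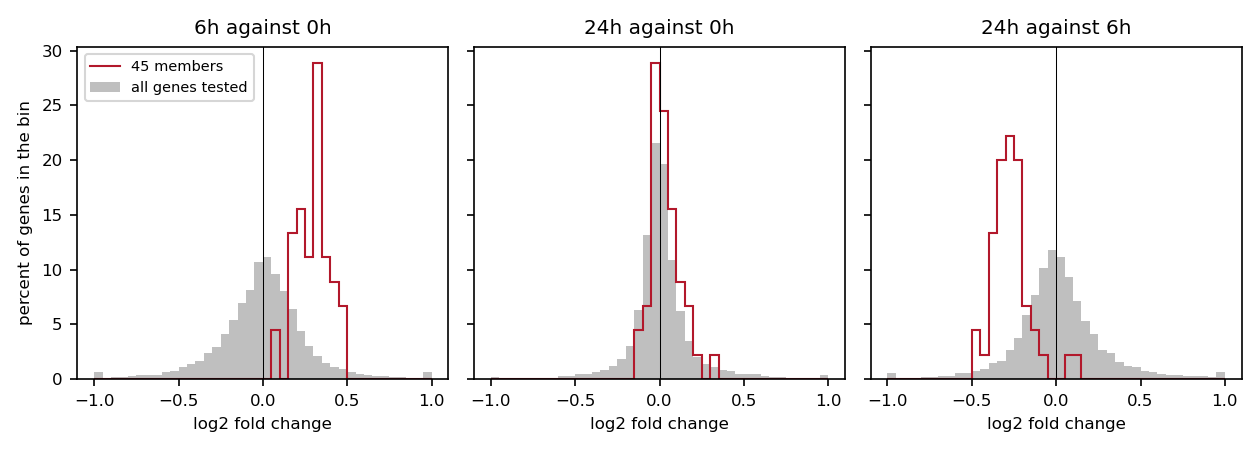
Distribution of log2 fold changes in the 3 comparisons, as the percent of genes per bin of 0.05, with the outermost bins holding all larger changes; grey bars are the 13785 genes tested and the red outline the 45 members. The members lie to the right of most genes at 6h against 0h, around 0 at 24h against 0h, and to the left from 6h to 24h.

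Of a further list of 130 ribosome biogenesis genes, 122 could be tested. At 6h 102 rose and none fell, with a median of 0.23 (all genes 20.8% and 18.2%). From 6h to 24h none rose and 93 fell (all genes 17.4% and 18.8%). At 24h against 0h 8 rose and 3 fell, which is near the shares of all genes (4.17% and 2.87%). Among factors of RNA polymerase I, 5 of 9 tested rose at 6h, led by Polr1e at 0.45 ± 0.043 (adjusted p = 2.05e-09), Rrn3, which recruits the polymerase, at 0.25 ± 0.027 (adjusted p = 1.61e-08), and Polr1d at 0.21 ± 0.036 (adjusted p = 2.34e-05). Small subunit factors rose in 39 of 42 (Tsr1 0.49 ± 0.026 (adjusted p = 8.04e-15), Ltv1 0.45, Mphosph10 0.43), and large subunit factors in 37 of 46 (Mak16 0.39, Rpf2 0.43, Rrp8 0.37). Assembly factors of small nucleolar particles rose in 8 of 9 (Znhit6 0.42, Naf1 0.19, Nufip1 0.26), and the exosome and its nucleolar partners, which trim ribosomal RNA, in 13 of 16 (Exosc2 0.27, Dis3 0.24, Exosc9 0.36).

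Of 11 genes of the MYC network that were tested, 3 rose and 3 fell at 6h, which is near the shares of all genes (20.8% and 18.2%). Max, Mga and Mlx rose by 0.096, 0.20 and 0.18, and Mycl, Mxi1 and Mxd4 fell by 0.38, 0.15 and 0.44. Max is the partner of MYC. Myc itself was at 146.5 ± 3.2 CPM at 0h, 154 ± 5.1 at 6h and 139.7 ± 5.0 at 24h (SD, n = 3 each). It was not called at 6h (0.075 ± 0.031 (adjusted p = 0.0531)) and fell from 6h to 24h, with -0.14 ± 0.031 (adjusted p = 0.000503). Mxd4 was at 70.1 ± 0.71, 51.6 ± 1.5 and 64.8 ± 1.4 CPM, with changes of -0.44 ± 0.034 (adjusted p = 1.91e-11) at 6h and 0.33 ± 0.034 (adjusted p = 8.82e-09) from 6h to 24h. The part of these genes in the change of the members was not tested. MYC binding was not measured.

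Over the same gene bodies, regions of macroH2A2-GFP were present at 6h, and none was called at 24h. At 0h none of the 45 members had a base inside a region, against 7.9% of genes of 10 CPM or more at 0h. At 6h 16 of 45 did, or 35.6%, against 59.7% of those genes and 47.3% of all protein-coding genes. At 24h and 5d none did, against 15.2% and 8.91%. With wider windows and gaps for region calling, 1 member (Nop10) had coverage at 5d, of 7.71% of its body. The lowest level of a member was 35.0 CPM at 0h, and among genes of 30 CPM or more, a class set after this was seen, 61.8% were touched at 6h. Of those of 3 to 50 kb, which leaves out the shortest and longest genes, 3.39% were touched at 0h and 52.2% at 6h. At 24h and 5d 7.55% and 3.16% of them were. These shares lie nearer those of the members. Here and below the members were not limited by length, and Nop10, Rrs1, Polr1a, Utp20 and Ddx10 lie outside that range. There was 1 library per condition, so these are descriptions of libraries without a test, and CPM are not corrected for gene length.

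Gene bodies with at least 50% of their length in regions were rare among the members. At 6h they were Wdr43 and Nip7 (4.44%), against 14.4% of genes of 10 CPM or more. Wdr43 (chr17:71616178-71659031) was covered over 87.4% at 6h by 4 regions and over 0% at 0h, 24h and 5d. Nip7 (chr8:107056877-107060931) was covered over 67.4% at 6h. Nop14 (chr5:34638536-34660148), Bysl (chr17:47599331-47611492) and Npm1 (chr11:33152498-33164142) were covered over 44.4, 43.3 and 42.1% at 6h. These 5 had the largest losses, since each was at 0% at 24h. The others above 20% at 6h were Utp4 at 38.3%, Ddx10 at 38.3%, Noc3l at 34.4% and Ncl at 22.3%. A loss of 20 points or more from 6h to 24h was thus seen in 9 of 45 members (20.0%), against 32.8% of genes of 10 CPM or more. As no member was covered at 24h, these are the members above 20% at 6h. Their share thus describes coverage at 6h, and every covered member lost all of it. Nop56, Rrp12, Utp20, Nop10, Ddx21, Ebna1bp2 and Emg1 were touched over 2.96 to 10.4%. Regions have no strand, so those over a member can also lie over a gene that overlaps it on either strand. Such overlaps include Bysl with Ccnd3, Nop14 with Gm15522, Emg1 with Lpcat3, Nop56 with Idh3b, Wdr12 with Carf and Ftsj3 with Ddx42.

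The region lists carry a running number with gaps, which lie mostly on chromosomes 8, 15 and 17, and numbers were absent beside Dkc1, Wdr43, Bysl and Ddx10 at 6h. Coverage there may be understated, also at 0h, where 16.1% of the numbers were absent and where the gaps lay beside Dkc1, Heatr1, Nop14, Bysl, Bop1 and Noc2l. Gaps also lay beside Heatr1, Bysl, Bop1 and Noc2l at 24h, beside Heatr1, Wdr43, Ddx10 and Noc2l at 5d, and beside Bysl with flavopiridol. With GSK126 they lay beside Wdr43 and Bysl at 6h and beside Wdr43 and Noc2l at 24h. A coverage of 0% for these genes in these libraries may thus be too low. Of the 9 members above 20% at 6h, 4 are on chromosomes 8, 15 and 17 (Wdr43, Nip7, Bysl and Utp4). Without members on them or beside a gap, none was at 50% or more at 6h.

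**Figure D4:**
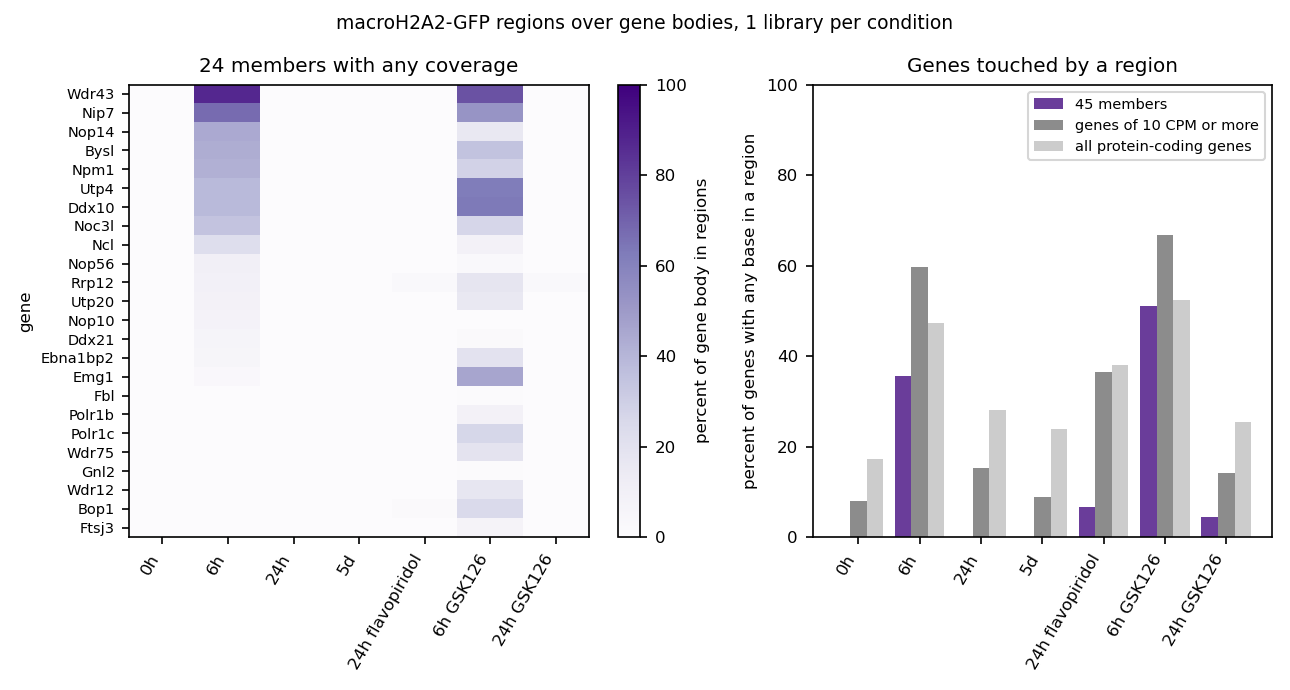
Left, percent of the gene body inside macroH2A2-GFP regions for the 24 members with any coverage, by library; right, percent of genes with any base in a region for the members, genes of 10 CPM or more at 0h and all protein-coding genes. Coverage of members is seen at 6h with and without GSK126 and is at or near 0 in the other libraries.

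At 6h few members had a region at the start, and more had one at the end. Windows of 1 kb to each side of the start held a base of a region in 3 of 38 members with a known start (7.89%), against 35.6% of 7000 genes of 10 CPM or more. Windows of the same size at the gene's end did in 16 of 38 members (42.1%), against 34.9% of those genes, which is a like share. Of these 16, Ftsj3, Gnl3 and Nolc1 had no base of a region over the body, so their regions lay past the end, and in the short gene Nop10 the windows at start and end overlap. In Ncl the 1 region began 11.5 kb from the start of a 14.7 kb gene, and in Bysl it began 6.89 kb into 12.2 kb. In both it ran past the end of the gene. Wdr43 was covered from 0.986 kb after its start. Of the 9 members above 20%, 8 had a known start, and only Wdr43 and Nop14 had a base of a region within 1 kb of it, over 0.750 and 32.6% of the window.

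**Figure D5:**
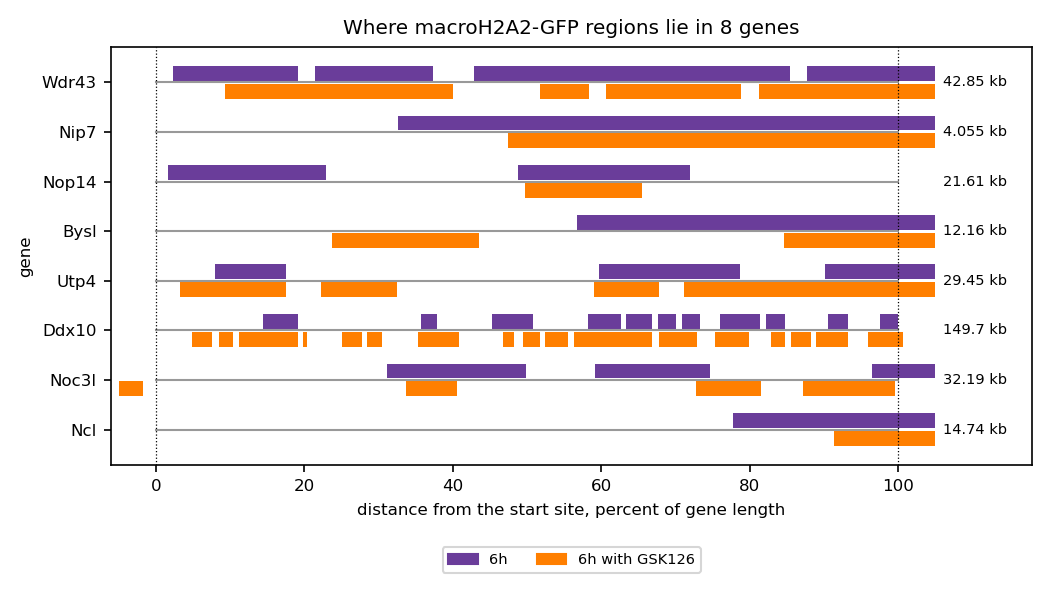
Position of macroH2A2-GFP regions at 6h (purple) and at 6h with GSK126 (orange) in 8 members with over 20% coverage at 6h and a known start, as distance from the start in percent of gene length; dotted lines mark start and end, the length is at the right, and regions are drawn to 5% beyond the gene. In Nip7, Bysl and Ncl the regions at 6h without GSK126 reach the end of the gene and leave the start free, while Bysl has a further region nearer the start with GSK126.

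Nop10 differed from the other members in its surroundings. A region lay within 1 kb of its start in all 7 macroH2A2-GFP libraries, including 0h, over 33.7% of the window at 0h, 53.7% at 6h and 43.7% in the other 5. The body of this gene of 973 bases was free of regions except for 7.71% at 6h, and the region at 6h (chr2:112259401-112262000) lay almost wholly before the start, on the side of its neighbour Nutm1. At 0h Nop10 was the only 1 of 38 members with a base of a region in this window, against 7.67% of genes of 10 CPM or more. The 0h library held 28980 regions over 201.1 Mb, though its cells lacked macroH2A2 of their own and had no doxycycline. What these regions hold was not tested, so the region at Nop10 at 0h is not shown to be macroH2A2.

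With flavopiridol at 24h few members had regions over the body. In that library 3 of 45 were touched, against 36.5% of genes of 10 CPM or more and 23.6% of those of 30 CPM or more and 3 to 50 kb. They were Rrp12 over 2.50%, Bop1 over 1.70% and Utp4 over 0.319% of the body, and all 3 were at 0% without it. A gain of 20 points or more was seen in 0 of 45, against 14.9% of genes of 10 CPM or more. Wdr43, Nip7, Nop14, Bysl and Npm1, which lost most from 6h to 24h, were at 0% with it. At the start, a base of a region lay within 1 kb in 5 of 38 members with flavopiridol, against 27.6% of genes of 10 CPM or more, and in 1 of 38 without it, against 18.7%. These were Nop10 in both libraries, and with flavopiridol also Polr1b (20.2% of the window), Dkc1 (7.35%), Nhp2 (1.40%) and Pes1 (1.30%). No RNA library with flavopiridol was analysed here.

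With GSK126 more members were touched at 6h. They were 23 of 45, or 51.1%, against 66.7% of genes of 10 CPM or more and 59.8% of those of 30 CPM or more and 3 to 50 kb. At 50% or more were 4 (Wdr43, Ddx10, Utp4 and Nip7), against 19.0% of genes of 10 CPM or more. Emg1 was covered over 46.0% with GSK126 and 2.96% without it. Polr1c and Bop1 were at 26.2 and 24.7% with it and at 0% without it, and Ddx10 and Utp4 gained 25.0 and 23.8 points. A gain of 20 points was thus seen in 5 members (11.1%), against 11.8% of genes of 10 CPM or more, so the share is near that of other genes. Nop14 went the other way, from 44.4 to 15.7%. Windows at the start held a base of a region in 8 of 38 members with GSK126, against 36.4% of genes of 10 CPM or more. At 24h with GSK126 only Rrp12 (1.96%) and Noc3l (0.342%) were touched, against 14.1% of genes of 10 CPM or more. Of those of 30 CPM or more and 3 to 50 kb 6.07% were.

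H2A.Z, which marks the nucleosomes beside active starts, was found at nearly all members in the primary fibroblasts. Its regions covered 50% or more of the window around the start in 35 of 38 members (92.1%), against 89.9% of genes of 10 CPM or more, which is a like share. The 3 below were Nop10 at 46.3% and Noc4l and Gnl3 at 0%. Over the body the median was 7.99%, and only the short genes Nop10 (92.3%) and Rrs1 (68.0%) were at 50% or more (2.37% of genes of 10 CPM or more were). These cells were wild-type and not immortalized, and no H2A.Z library of the RNA cells was analysed here.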

How the data were processed

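Poly(A) RNA was counted in 9 libraries, 3 at each of 0h, 6h and 24h. Regions of macroH2A2-GFP were called in 7 libraries and regions of H2A.Z in 1. The input library was left out. Per the submitters' processing notes, the builds named are GRCm38.p4 and mm10 and the tools include STAR 2.5.2b, Bowtie 1.1.2 and SICER 1.1. The deposited RNA values are raw read counts per gene, in an unstranded column and 2 stranded columns. Column 4 was used because it held 96.6 to 96.9% of the counts of both strands. The deposited region lists hold positions, a whole-number score whose reference is not given in the sources used here, and another column with a running number, which is not a measurement. The lists used have a window of 200 and a gap of 800 bases per the file names, and 16.1% of the running numbers were absent at 0h and 3.36 to 5.52% in the other lists.

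All 9 RNA libraries were fitted together in edgeR 4.0.16 (R 4.3.3) with filterByExpr, TMM and the quasi-likelihood test by time, which kept 13785 of 48440 genes. P-values were adjusted by Benjamini-Hochberg over these genes within each comparison, and a gene was called at an adjusted p under 0.05, whatever its fold change. The biological coefficient of variation was 2.69%. The script was tested on simulated data. CPM are normalised by TMM, and ± beside a log2 change is its standard error. The labels call the replicates biological triplicates and name no separate animals. Replicate numbers did not pair the libraries (correlations of same-numbered deviations from -0.018 to 0.039).

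Coverage is the percent of bases of a gene between the start and end in RefSeq GRCm38.p6 that lie inside regions, without trimming (Python 3.11.15, pandas 2.3.3). The window at a start or end is 1 kb to each side, for 38 members with a strand in the promoter table. The depth behind the regions is unknown. Coverage was set beside all protein-coding genes on chromosomes 1 to 19 and X and beside those of 10 CPM or more at 0h. Some shares were also given for those of 30 CPM or more at 0h and for those of 3 to 50 kb among them.

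Values in every library were given for the 10 called members with the largest change in each comparison and for 10 well-known members, of the other lists up to 3 genes with the smallest p, and of the ChIP results the 5 members with the largest loss from 6h to 24h and up to 5 with a gain with flavopiridol. Further members were named after their values were seen. The members and all lists were chosen with earlier results of these data known. Of the further list, 123 of 130 genes had a row in the count tables. Alternatives were DESeq2 1.42.0, other size factors, no filter on low counts, the libraries of a comparison alone, unstranded counts, a replicate block, leaving out each library, and for coverage trimming, a score filter, another threshold and wider region calling.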

Additional observations from a re-analysis of the deposited data

Results flagged for a closer look

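Tcof1, the gene of treacle, was the only member called in opposite directions at 6h and at 24h against 0h, by 0.16 and -0.14 on the log2 scale (edgeR, adjusted p = 9.77e-05 and 0.00213). A call between 6h and 24h was part of the rule that flagged it, so that call is no added support. The log2 change from 6h to 24h was -0.30 (edgeR, adjusted p = 4.21e-09). All 3 libraries at 6h lay above and all 3 at 24h lay below those at 0h. Taken singly, 25.3% of all genes did the first and 11.5% the second. The share of all genes that did both was not counted.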

How the results depend on the processing

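With RLE size factors, DESeq2, no filter on low counts, the 6 libraries of a comparison, unstranded counts or a replicate block, 44 or 45 members rose at 6h, 10 or 11 were higher and 1 lower at 24h than at 0h, and 43 fell from 6h to 24h. No member lost its call under these settings. Polr1c was called at 6h without the filter (adjusted p = 0.0381), with the 6 libraries (0.0446) and with the replicate block (0.0299). With the replicate block the medians were 0.32, 0.0079 and -0.27 in the 3 comparisons, and the block changed no other call of a member that is named with values. Leaving out 1 library, 43 to 45 members rose at 6h, 5 to 13 were higher at 24h than at 0h and 41 to 43 fell from 6h to 24h, and the medians were 0.31 to 0.33, 0.0014 to 0.023 and -0.28 to -0.26. An arm left with 2 libraries shares the spread of the others in these fits. At 24h against 0h the sign of 3 members without a call changed. Ncl was at -0.0027 with RLE size factors, -0.0028 with DESeq2, -0.00071 unstranded, and at -0.0087, -0.011 and -0.014 without 0h replicate 2 or 3 or 24h replicate 3, over a range of -0.014 to 0.021 when 1 library was left out. Polr1b was at -0.014 without 0h replicate 1 and -0.00053 without 24h replicate 3 (range -0.014 to 0.024), and Heatr1 at 0.0016 without 0h replicate 3 (range -0.036 to 0.0016). Of 27 further uncalled members 11 changed sign under some setting, with changes of at most 0.029 in size, and Mrto4, Nop58 and Nhp2 were called under some. Members covered at 50% or more at 6h were 2, and 1 without the lowest 25% of regions by score, 1 at a threshold of 80%, and 0 without members on chromosomes 8, 15 and 17 or beside an absent number, a setting chosen after seeing the data. With GSK126 at 6h they were 4, and 1, 0 and 1 under the same settings. For H2A.Z they were 2, and 0 with 1 kb trimmed at both ends of genes of 3 kb or more and 1 at 80%. The cause of these changes was not tested, beyond fewer genes and regions being counted. Depth is unknown for the regions, so a member without a region may have had signal below the caller's threshold.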
